A study of Homo sapiens with 26 samples.

Results

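The comparison described here asks how the RNA difference left by labeling at the inner face of the plasma membrane differs, gene by gene, from that left by labeling at the outer face. All 26 of the series' 26 libraries entered it. HEK293T cells, a human embryonic kidney line, stably carried one of 4 fusions of the peroxidase APEX2. Lyn11 and Lck place it inside the cell, and CD28 and PDGFR place it outside. The inside groups were 4 labeled and 4 control Lyn11 libraries and 3 labeled and 3 control Lck libraries. The outside groups were 3 labeled and 3 control CD28 libraries and 3 labeled and 3 control PDGFR libraries. Per the labels' protocol, cells took up biotin-phenol for 30 min, and hydrogen peroxide at 1 mM was then added for 1 min. Biotinylated RNA was enriched on streptavidin beads, and which of these steps the controls had is not stated apart. For each gene, the labeled-minus-control differences of Lyn11 and Lck were averaged, and the average of the CD28 and PDGFR differences was subtracted. A positive value therefore means that labeling raised a gene more inside, or lowered it less, than outside.

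APEX2 turns biotin-phenol into a radical that lives briefly and tags nearby RNA and protein, and bead capture then enriches the tagged RNA. Lyn11 and Lck are short lipid-anchored targeting sequences of Src family kinases, which sit on the cytosolic leaflet. CD28, a T cell costimulatory receptor, and PDGFR, a growth factor receptor, supply membrane-spanning segments that can hold the enzyme on the cell surface. Messenger RNAs of membrane and secreted proteins are translated at the endoplasmic reticulum, and immediate early genes such as EGR1 and FOS are transcribed within minutes of growth factor or oxidant exposure without new protein synthesis.

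Libraries held 19516759 to 34826057 reads inside and 11341475 to 16262914 outside, as recovered from the deposited log2 FPKM values (fragments scaled to gene length and library size). Genes at 0 reads, of the 25745 in the table, numbered 23 to 308 inside and 176 to 3158 outside. CD28 labeled replicate 2 had the most, 3158, and PDGFR control replicate 2 had 3031. CD28, whose transcript the construct carries, had 3591, 1989 and 3173 reads in labeled CD28 libraries and 2690, 1857 and 3450 in CD28 controls, and at most 1 read in any other library. The 14 listed HEK293T markers, of which 9 had a mean log2 FPKM of at least 1, summed to 117 to 182 FPKM inside and 104 to 166 outside. Blood markers summed to 4.76 to 10.6 and 6.3 to 9.19 FPKM in the same order, with 2 of 16 at that level. Fibroblast markers summed to 20.4 to 35.4 and 17.9 to 28.1, and epithelial markers to 19.4 to 36.1 and 18.9 to 34.3, each with 2 of 12 at that level. Side of the membrane, construct, cell line and depth cannot be told apart in this design. The design text speaks of biological replicates and names no culture, so p-values measure the spread between these libraries.

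Of 22284 genes tested, 1 had a positive inside minus outside difference at an adjusted p under 0.05 and 0 a negative one (0.00449% called). The test was limma with Benjamini-Hochberg adjustment over all genes. The called gene did not rise on either side: its fitted labeling differences were -0.58 inside and -3.60 outside. At an unadjusted p under 0.05 there were 1453 genes (6.52%), of which 781 were higher (3.5%) and 672 lower (3.02%), and limma voom on recovered reads called 0 genes. Each side alone gave more calls. Labeling inside called 637 genes (2.86%), of which 555 rose (2.49%) and 82 fell (0.368%). Labeling outside called 710 (3.19%), of which 340 rose (1.53%) and 370 fell (1.66%). By construct, Lyn11 called 129 (0.579%), 118 higher (0.53%) and 11 lower (0.0494%). Lck called 177 (0.794%), 169 higher (0.758%) and 8 lower (0.0359%). CD28 called 106 (0.476%), 39 higher (0.175%) and 67 lower (0.301%). PDGFR called 475 (2.13%), 306 higher (1.37%) and 169 lower (0.758%). Of these, 200 rose on both sides, which is 36% of the inside list and 58.8% of the outside list. Another 43 fell on both sides, 52.4% of the inside list and 11.6% of the outside list, and 0 were called in opposite directions. Genes called higher inside had a median difference of 1.48 inside and 0.82 outside, and 530 of the 555 (95.5%) lay above 0 outside. Genes called higher outside had a median of 1.22 inside and 1.6 outside, and 312 of the 340 (91.8%) lay above 0 inside. Lists picked by a threshold on 1 side favour that side in such medians. These counts moved with the fit. Inside calls numbered 255 with a stricter filter on low values and 1616 with library weights by construct, and outside calls 313 and 215. By limma voom they were 1165 inside and 372 outside, so which side had more calls depended on the fit.

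The inside and outside differences had a Pearson correlation of 0.502 and a Spearman correlation of 0.363 across the 22284 genes, and 0.565 and 0.391 in genes with a mean of at least 100 reads. The 2 sides have separate controls, and the genes are not independent replicates. Within sides, the Pearson correlation was 0.691 for Lyn11 with Lck and 0.198 for CD28 with PDGFR. Averages of 2 constructs and single constructs are not comparable in this respect.

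**Figure D1:**
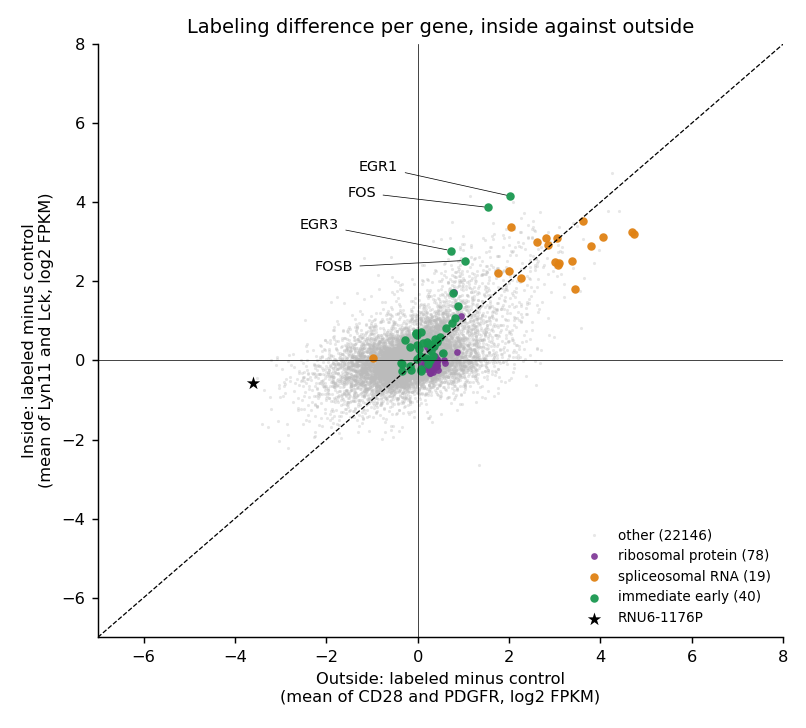
Labeled-minus-control difference (log2 FPKM) outside, the mean of CD28 and PDGFR, on the x axis and inside, the mean of Lyn11 and Lck, on the y axis, 1 point for each of 22284 genes, with equality dashed. EGR1, FOS, FOSB and EGR3 lie above the line, ribosomal protein mRNAs mostly below it, most spliceosomal RNAs high on both axes, and RNU6-1176P far to the left.

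How small a difference could have been seen depended on level. The 95% interval of the difference lay within 1 log2 unit of 0 for 12779 genes (57.35%). That held for 98.4% of the 5103 genes with a mean over 1000 reads, 73.9% of those with 100 to 300 and 1.79% of those with 10 to 30. For the genes with many reads, a log2 difference beyond 1 was therefore mostly outside the interval, and for most genes with few reads the interval included one.

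The gene that passed was RNU6-1176P (ENSG00000212257.1, chr1:65022968-65023074, minus strand, hg38), an annotated copy of U6, the small nuclear RNA at the catalytic core of the spliceosome. Aligned with a U6 gene on chromosome 15 (start 67839939), RNU6-1176P had identical bases in 73 of 108 columns (67.6%). It is therefore no near-identical copy of that gene. It overlaps no other annotated gene. Its mean of 8.31 reads was below the level asked of named genes, so it was chosen after its values were seen. Labeled inside libraries had 5, 4, 6 and 7 reads with Lyn11 and 10, 8 and 25 with Lck. Inside controls had 4, 15, 13 and 16 with Lyn11 and 20, 18 and 11 with Lck. The 3 labeled CD28 and 3 labeled PDGFR libraries had 0 reads each, against 5, 8 and 5 in CD28 controls and 12, 18 and 6 in PDGFR controls. Labeled and control libraries thus overlapped inside and did not overlap outside.

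The fitted difference was 3.03 ± 0.44 log2 units (SE, 95% interval 2.11 to 3.94, adjusted p = 0.0197), with -0.58 ± 0.30 inside and -3.60 ± 0.32 outside. From reads scaled to depth, labeling gave a ratio of 0.684 inside (exact binomial interval 0.492 to 0.947, 65 labeled against 97 control reads). Outside it was at least 18.5-fold lower, against a floor of 3 reads over the 6 labeled libraries (0 against 54 reads). Such intervals and floors cover counting error only. The 6 libraries at 0 reads share 1 value, so they add no spread to the fit. The gene was called in 27 of 40 alternative fits, and its adjusted p over them was 0.00307 to 0.611. The call was lost when Lyn11 labeled replicate 4, Lck control replicate 2 or 3, CD28 labeled replicate 2 or PDGFR labeled replicate 2 was left out.

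The 186 genes and copies annotated as U6 in the table, all tested, had a median difference of 0.36. Their medians were -0.08 inside and -0.42 outside, and 119 lay above 0, beside 44.7% of all genes. Which of them yield working U6 was not tested. The mean reads of these genes and copies had a median of 9.5. All genes with up to 10 mean reads had a median difference of 0.34, close to that of the U6 set. At an unadjusted p under 0.05, 17 of the 186 were higher and 2 lower, beside 3.5% and 3.02% of all genes.

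Immediate early genes lay higher inside than outside at the median, and none passed the test. Of 47 listed genes, 40 were tested, with a median difference of 0.21 beside -0.04 over all genes. Their medians were 0.42 inside and 0.22 outside, and 31 of 40 had a difference above 0, beside 44.7% of all genes. In 18 of 40 both inside constructs exceeded both outside ones, against 16.8% of all genes, and in 2 both lay below, against 22.9%. At an unadjusted p under 0.05, 9 were higher and 1 lower, beside 3.5% and 3.02% of all genes. Labeling inside called 16 of the 40 higher, beside 2.49% of all genes, and labeling outside called 6 higher, beside 1.53%, with 0 called lower on either side. EGR1, FOSB, CCN1, GADD45B, JUN and PPP1R15A were called on both sides. A gene was tested if 3 or more libraries had a log2 FPKM over 0. EGR3 and FOSB met this only with their labeled inside libraries, where they are high, so the filter favoured them in these counts. Leaving out 1 library put the list median between 0.14 and 0.28, and leaving out CD28 labeled replicate 2 and PDGFR control replicate 2 together gave 0.33.

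EGR1 (chr5:138465490-138469315, plus strand, hg38), a zinc finger transcription factor, stood at 4.2, 3.52, 3.93 and 3.79 log2 FPKM in labeled Lyn11 libraries, against 0.29, -0.35, 0.13 and -0.23 in Lyn11 controls. With Lck it stood at 4.25, 3.89 and 3.78, against -0.48, -0.43 and -0.42 in controls. With CD28 it stood at 1.11, 0.05 and 1.54, against -1.56, 0.16 and -2.17, and with PDGFR at 0.92, 1.37 and 0.47, against -1.34, -0.63 and -1.12. The lowest labeled inside library was above the highest labeled outside library by more than 1 unit, and labeled CD28 overlapped its controls. The labeled-over-control ratio of depth-scaled reads was 17.1 inside (exact interval 15.5 to 18.8, 7831 against 469 reads) and 3.95 outside (3.26 to 4.81, 541 against 133 reads).

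Labeling raised EGR1 by 4.16 ± 0.29 inside (adjusted p = 1.24e-08) and by 2.02 ± 0.31 outside (adjusted p = 0.000722). The difference of the 2 was 2.14 ± 0.42 (95% interval 1.26 to 3.02), and it did not pass (limma adjusted p = 0.345). The interval of this 1 gene lies above 0, but the p was not small enough among 22284 genes. Comparing labeled libraries alone, EGR1 was 3.01 higher inside (adjusted p = 1.5e-05), and comparing controls alone it was 0.87 higher inside (adjusted p = 0.0643).

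FOS (chr14:75278774-75282230, plus strand), a subunit of the AP-1 transcription factor, stood at 2.05 to 2.8 log2 FPKM in the 7 labeled inside libraries, against -2.51 to -0.3 in their controls. Outside, it stood at 0.28, -1.53 and -0.02 in labeled CD28 libraries against -0.8, -2.4 and -1.66 in controls, and at 0.74, 1.45 and 0.6 in labeled PDGFR libraries against 0.18, -2.96 and -0.06 in controls. The labeled inside libraries were above every outside library, and the outside groups overlapped for CD28. FOS rose by 3.87 ± 0.43 inside (adjusted p = 1.04e-05) and had 1.53 ± 0.46 outside (adjusted p = 0.0753). The difference was 2.34 ± 0.63 (95% interval 1.02 to 3.66, limma adjusted p = 0.576). Without CD28 labeled replicate 2 and PDGFR control replicate 2, it was 2.56 and was called (adjusted p = 0.037).

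FOSB (chr19:45467995-45475179, plus strand, within ERCC1 on the opposite strand), a relative of FOS, stood at 1.26, 1.14, 1.73 and 1.59 in labeled Lyn11 libraries and at 2.13, 1.5 and 1.97 in labeled Lck libraries, against -1.2 to -0.15 in all 7 inside controls. Labeled CD28 libraries had -0.66, -0.59 and -0.35 against -1.82, -1.17 and -1.6, and labeled PDGFR libraries 0.24, -0.36 and 0.62 against -1.03, -0.76 and -0.87. Labeled and control libraries did not overlap in any of the 4 constructs. FOSB rose by 2.53 ± 0.21 inside (adjusted p = 1.26e-07) and by 1.03 ± 0.22 outside (adjusted p = 0.0126), and the difference was 1.5 ± 0.31 (limma adjusted p = 0.354).

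**Figure D2:**
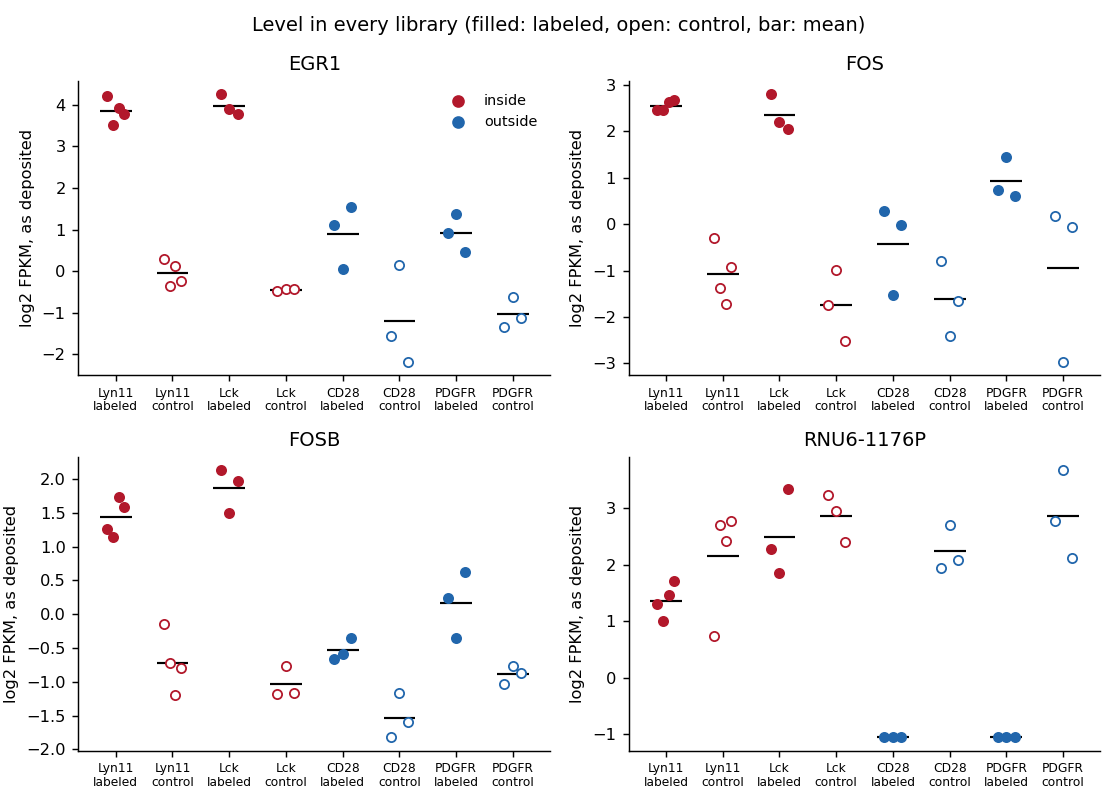
Level of EGR1, FOS, FOSB and RNU6-1176P in each of the 26 libraries (log2 FPKM as deposited), inside in red and outside in blue, labeled filled and control open, with the group mean as a bar. Labeled inside libraries of EGR1 lie between 3.52 and 4.25 and labeled outside ones between 0.05 and 1.54, and the 6 labeled outside libraries of RNU6-1176P share the value for 0 reads.

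EGR3, a relative of EGR1 on chromosome 8, had a mean of 36.2 reads and a difference of 2.06 ± 0.76 (adjusted p = 0.699), with 2.78 inside, 2.12 with CD28 and -0.68 with PDGFR. It exceeded 0 log2 FPKM in labeled inside libraries alone, so it entered the test through the group where it is high. EGR1, FOS, FOSB and EGR3 were the 4 genes called when 0.5 FPKM was added to each value, at adjusted p of 0.0013, 0.031, 0.0292 and 0.031, and RNU6-1176P then had 0.0639. The EGR3 difference was then 1.06, and over all alternatives it was 0.38 to 3.74. Among the next in size, ZFP36, with a mean of 42.1 reads, had 0.80 ± 0.44 and was called on neither side. The others named here were called inside and not outside, and the side difference was called in none of them. SGK1, a kinase induced by serum, had 0.94 ± 0.34, FOSL2, an AP-1 subunit, 0.74 ± 0.20, KLF4, a transcription factor, 0.71 ± 0.22, and DUSP5, a phosphatase of the kinase ERK, 0.67 ± 0.19, with adjusted p from 0.576 to 0.672. FOSL2 stood at 1.68 to 2.25 in labeled inside libraries against 1.15 to 1.75 in inside controls, and at 0.55 to 1.49 in labeled outside libraries against 0.73 to 1.28 in outside controls.

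The remaining early genes had smaller side differences. JUN (chr1:58780788-58784327, minus strand), the partner of FOS, rose by 0.59 ± 0.09 inside and 0.50 ± 0.10 outside, with a difference of 0.09 ± 0.13 and a 95% interval of -0.18 to 0.36. CCN1, a matricellular protein, rose by 1.37 ± 0.18 inside and 0.89 ± 0.19 outside, with an interval of -0.07 to 1.03 for the difference. DUSP1, an ERK and JNK phosphatase, had 0.20 ± 0.26, and JUNB, an AP-1 subunit whose gene overlaps HOOK2 on the opposite strand, 0.41 ± 0.22. MYC, a growth regulator, had -0.35 ± 0.11 (95% interval -0.59 to -0.11, adjusted p = 0.628), the sole gene of the list that was lower at an unadjusted p under 0.05.

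The EGR1 promoter is shown because it carries CArG boxes, the letters bound by serum response factor, and EGR1 had the largest inside difference of the list. The RefSeq window runs from 250 bases before to 50 after the start, chr5:138465229-138465528 on the plus strand of GRCh38.p14, and capitals mark each match to the CArG box.
EGR1 promoter: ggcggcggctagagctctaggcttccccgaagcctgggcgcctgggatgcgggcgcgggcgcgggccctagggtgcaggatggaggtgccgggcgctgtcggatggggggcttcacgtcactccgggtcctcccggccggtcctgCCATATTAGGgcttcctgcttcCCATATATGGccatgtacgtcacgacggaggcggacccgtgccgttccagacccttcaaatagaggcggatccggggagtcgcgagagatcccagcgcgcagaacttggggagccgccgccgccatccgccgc
It holds 2 matches. The motif is its own reverse complement, so 1 search covers both strands. It stood in 438 of 27305 promoters of this length (1.6%), and among the 27 early genes tested that have a promoter entry, in EGR1 and SRF. The FOS and FOSB windows hold no match, which says only that these letters are not in them.

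Spliceosomal small nuclear RNAs had the highest medians of the 31 lists on both sides, and their median side difference was small beside them. Of 33 listed genes 19 were tested. Labeling inside called 15 higher and labeling outside 17, beside 2.49% and 1.53% of all genes, with medians of 2.88 inside and 3.05 outside. The median difference was -0.19 (-0.43 without Lck control replicate 3 and -0.05 without Lck control replicate 2). In 8 of 19 it lay above 0, beside 44.7% of all genes, and 0 were called. At an unadjusted p under 0.05, 1 was higher and 2 lower, beside 3.5% and 3.02% of all genes. RNU1-1 (chr1:16514122-16514285, minus strand), a gene of U1, which recognises the 5′ splice site, had 29, 98, 62 and 81 reads in labeled Lyn11 and 22, 27 and 20 in labeled Lck libraries. Inside controls had 13, 6, 9 and 1 reads with Lyn11 and 2, 1 and 1 with Lck. Outside, labeled CD28 libraries had 31, 20 and 53 reads against 1, 0 and 4, and labeled PDGFR libraries 31, 21 and 37 against 0, 0 and 0. Labeled libraries were above controls everywhere.

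The fitted RNU1-1 difference was -1.45 ± 0.57 (limma adjusted p = 0.712), and RNU1-2 had -1.54 ± 0.54 (adjusted p = 0.664). Since outside controls were at or near 0 reads, the ratios are loosely held: labeling gave 10.5-fold more depth-scaled RNU1-1 reads inside (exact interval 7.33 to 15.5) and 37.5-fold more outside (15.8 to 117). RNU4-2, a gene of U4, had -0.92 ± 0.62 and RNVU1-29, a variant U1 gene, 0.04 ± 0.31. RNU1-4, with 18.9 mean reads, had 1.33 ± 0.61, so copies of U1 lay on both sides of 0.

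Reads were also summed over the copies of each small RNA family, since those copies that are near-identical share reads. Not all copies are, such as the U6 copy that passed the test, with 67.6% identity to the U6 gene aligned with it. The sums were tested by an exact permutation of labeled and control within each construct (560000 assignments, two-sided, adjusted over 14 families). The permutation asks whether labeled and control libraries can be exchanged, so it cannot test whether the 2 sides are equal. U1, U2, U3, U4 and U5, whose labeled-minus-control values were above 0 on both sides, are given without a p. For the other families a p concerns the absence of any labeling effect, not equal effects on the 2 sides. Among these, U6, 7SL, Y and 5S were below 0 on both sides. U1, over 34 genes, averaged 142 ± 11.9 RPM (reads scaled to library size) in labeled inside libraries and 27.4 ± 6.95 in inside controls (SD, n = 7 each). Outside it averaged 171 ± 16 labeled and 46.9 ± 9.12 control (n = 6 each). The summed U1 difference was 0.51 ± 0.18 (SE), above 0, where the separate genes RNU1-1 and RNU1-2 lay below 0. U3, the box C/D RNA of ribosomal RNA processing, averaged 114 ± 9.76 RPM labeled inside against 26.8 ± 14.5 in controls, and 114 ± 15.5 labeled outside against 34.7 ± 10.9, with a difference of 0.48 ± 0.36.

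Among the other families, the smallest p for the absence of any labeling effect was for U4atac, the U4 counterpart of the minor spliceosome. Its 5 genes averaged 5.47 ± 1.05 RPM labeled inside against 3.3 ± 0.909 in controls, and 4.11 ± 1.56 labeled outside against 4.7 ± 1.21 in controls. The difference was 0.98 ± 0.30. The exact permutation p of 0.0065 (adjusted 0.0911) concerns the absence of any labeling effect and does not test this difference. RNU4ATAC itself, the gene of that RNA, lay the other way: labeling raised it by 2.46 inside (limma adjusted p = 0.00245) and 3.09 outside (adjusted p = 0.000856), a difference of -0.64 ± 0.66. U6, over 186 genes and copies, had a difference of 0.38 ± 0.15, and U7, the RNA of histone pre-mRNA processing, 0.33 ± 0.14. For the absence of any labeling effect, the exact permutation p was 0.0339 for U6 and 0.0346 for U7 (both adjusted 0.162). None of these 9 families passed that test after adjustment, and it says nothing about equal effects on the 2 sides. The remaining families ranged from -0.73 for U6atac to 0.45 for U11.

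**Figure D3:**
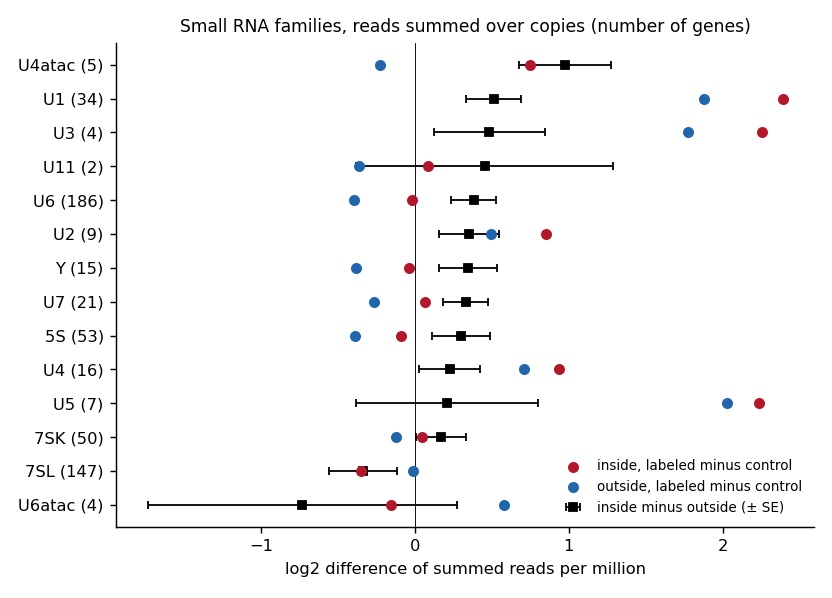
Inside minus outside difference of 14 small RNA families (black squares ± SE, log2 of summed RPM) with the labeled-minus-control difference inside (red) and outside (blue). U1, U3 and U5 are far to the right on both sides, and U4atac, at 0.98, has the largest difference.

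Messenger RNAs of the translation machinery lay lower inside than outside, with small differences and 0 genes called. Of 79 cytosolic ribosomal protein genes 78 were tested, with a median difference of -0.42. Their medians were -0.08 inside (-0.04 with Lyn11, -0.11 with Lck) and 0.34 outside (0.39 with CD28, 0.30 with PDGFR). In 70 of 78 both inside constructs lay below both outside ones, against 22.9% of all genes, and 4 lay above 0, against 44.7%. At an unadjusted p under 0.05, 16 were lower and 0 higher, beside 3.02% and 3.5% of all genes. RPL14 had the lowest adjusted p of the list, with -0.51 ± 0.17 (limma adjusted p = 0.638), and RPS16 had -0.48 ± 0.19 and RPL35 -0.69 ± 0.28. Leaving out 1 library put the median between -0.49 and -0.31, and quantile normalization gave -0.18.

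Nuclear-encoded oxidative phosphorylation mRNAs, 69 tested, had a median of -0.29. In 54 both inside constructs lay below both outside ones, against 22.9% of all genes. Translation factor mRNAs, 34 tested, had -0.28, with -0.10 inside and 0.19 outside, and 24 lay below in that way. Histone genes, 32 tested, had -0.28, and mitotic genes, 31 tested, -0.23, with 0 above 0, beside 44.7% of all genes. After quantile normalization these medians were -0.16 for oxidative phosphorylation, -0.06 for translation factors, -0.05 for histones and -0.02 for mitotic genes. Highly expressed genes as a whole shared this direction, as described with the level of the genes. Mitochondrially encoded mRNAs had the opposite sign. The 13 genes had a median of 0.33, a range of -0.21 to 0.60 and 11 above 0, beside 44.7% of all genes. That median was -0.10 without CD28 labeled replicate 2 and 0.57 without CD28 labeled replicate 1, so 1 CD28 library decided its sign. Their intervals all reached beyond 1 unit from 0.

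**Figure D4:**
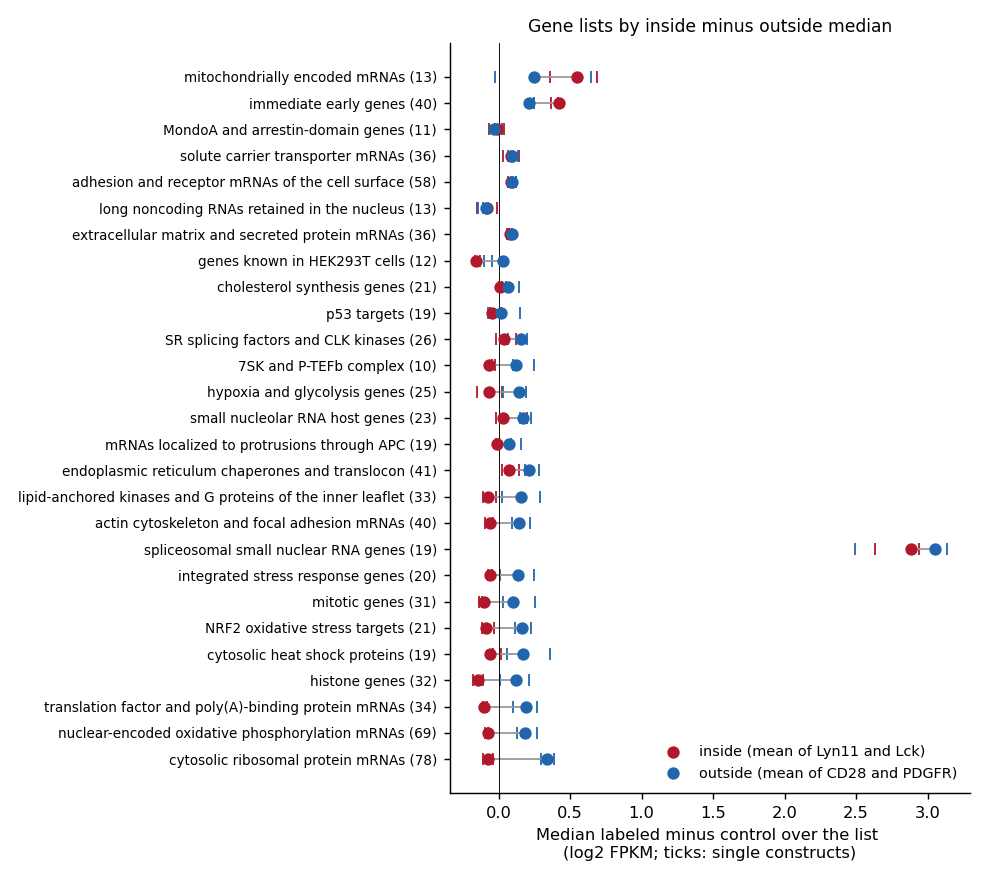
Median labeled-minus-control difference (log2 FPKM) of each list with at least 10 genes tested, inside in red and outside in blue, with ticks for single constructs and lists ordered by the inside minus outside median, highest at the top. Mitochondrial mRNAs and immediate early genes are at the top, at 0.33 and 0.21, and ribosomal protein mRNAs are lowest, at -0.42.

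Messenger RNAs of proteins that reach the cell surface differed little between the sides. Adhesion and receptor mRNAs, 58 tested, had a median of 0.01, with 0.09 inside and 0.09 outside. Solute carrier mRNAs, 36 tested, had 0.01, and extracellular matrix and secreted protein mRNAs, 36 tested, -0.02. In these lists 55 of 58, 33 of 36 and 36 of 36 genes had a 95% interval within 1 unit of 0. CD9, a tetraspanin, had -0.33 ± 0.18. Endoplasmic reticulum chaperone and translocon mRNAs, 41 tested, had a median of -0.14, with 0.08 inside and 0.21 outside. Messenger RNAs of lipid-anchored kinases and G proteins of the inner leaflet, 33 tested, had -0.19, with -0.07 inside and 0.16 outside. Of these, 2 lay above 0, beside 44.7% of all genes. Among them RHOA, a small GTPase, had -0.33 ± 0.12, GNB1, a G protein beta subunit, -0.38 ± 0.14, and LYN, the kinase whose targeting sequence Lyn11 is, -0.28 ± 0.17. Messenger RNAs carried to protrusions through APC, 19 tested, had a median of -0.13, and RAB13, the best known of them, had -0.42 ± 0.23. Median reads of the lists in this paragraph ran from 1488 (inner leaflet) to 3262 (endoplasmic reticulum). All genes over 1000 reads had a median difference of -0.13, close to the inner leaflet, endoplasmic reticulum and protrusion medians. The adhesion, solute carrier and extracellular matrix medians lay above it. After quantile normalization the endoplasmic reticulum list turned to 0.04, the inner leaflet list had -0.10 and the protrusion list -0.06. The adhesion, solute carrier and extracellular matrix lists then had 0.07, 0.12 and 0.07, and with median centring -0.06, -0.06 and -0.09, so they have no stable sign.

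A property that the comparison did not use was a stretch of 19 residues with a mean Kyte-Doolittle hydropathy of at least 1.6 in the encoded protein. The 4374 genes with such a stretch had a median difference of -0.04, against -0.12 for the 8547 without it. Their medians were 0.00 and -0.07 inside, and 0.06 and 0.07 outside. In genes over 1000 reads the medians were -0.07 with and -0.16 without. The interquartile ranges of the 2 classes overlapped, from -0.15 to 0.09 with and from -0.24 to 0.01 without. By exon length, the median ran from -0.17 in the shortest of 4 equal classes of protein-coding genes with at least 100 reads, through -0.12 and -0.08, to -0.06 in the longest. By GC content of the longest transcript it stayed between -0.11 and -0.08 in all 4 classes.

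The difference moved with the level of a gene. Its median was 0.34 in genes with up to 10 mean reads, then 0.23, 0.19, 0.04 and -0.07, and -0.13 in genes over 1000 reads. The medians of Lyn11, Lck and PDGFR stayed between -0.07 and 0.13 over these 6 classes, while that of CD28 went from -0.47 to 0.15. The order held when inside reads were thinned to the outside depth, at 0.33 in the lowest and -0.13 in the highest class. After quantile normalization these 2 medians were 0.12 and -0.04. They were 0.22 and -0.11 without CD28 labeled replicate 2 and PDGFR control replicate 2, so part of the trend rested on these 2 libraries. Antisense genes (2376 tested, median 0.20), long intergenic noncoding genes (1279, 0.16) and sense intronic genes (543, 0.29) lay above 0 and protein-coding genes (12937, -0.09) below. With at least 100 reads these medians were 0.13, 0.09, 0.14 and -0.10. Over all genes tested, quantile normalization gave 0.04, 0.03, 0.13 and -0.07. Without CD28 labeled replicate 2 and PDGFR control replicate 2 they were 0.12, 0.09, 0.17 and -0.07.

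**Figure D5:**
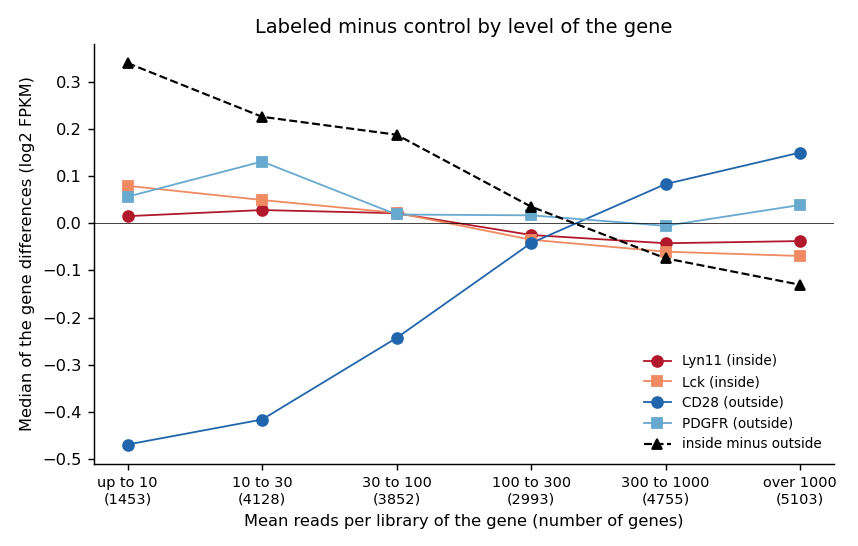
Median labeled-minus-control difference (log2 FPKM) of the genes in 6 classes of mean reads per library, for Lyn11 and Lck (inside, reds), CD28 and PDGFR (outside, blues) and for inside minus outside (black, dashed). CD28 runs from -0.47 to 0.15, the other constructs stay between -0.07 and 0.13, and inside minus outside runs from 0.34 to -0.13.

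The differences between constructs on 1 side are given here, but they are no like-for-like yardstick. They subtract 1 construct from another, while inside minus outside subtracts averages of 2 constructs, which carry less noise. For EGR1 the SE was 0.42 for inside minus outside and 0.62 for CD28 minus PDGFR. The counts and SDs below therefore do not rank these comparisons. Lyn11 minus Lck called 0 genes by limma, with 71 at an unadjusted p under 0.05, and 0 under each of the alternative fits. CD28 minus PDGFR called 11 genes (0.0494%), of which 1 was higher (0.00449%) and 10 lower (0.0449%), with 2079 at an unadjusted p under 0.05. The SD of the difference over genes was 0.41 for Lyn11 minus Lck, 0.56 for inside minus outside and 1.02 for CD28 minus PDGFR. The CD28 minus PDGFR count was between 0 and 111 over the alternatives, highest without PDGFR control replicate 1, and limma voom called 0. Without CD28 labeled replicate 1 it was 79, and without PDGFR control replicate 3 it was 105.

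Inside and outside libraries also differed without labeling. Control libraries alone gave 2490 called genes (11.2%) inside minus outside, 1635 higher (7.34%) and 855 lower (3.84%). Labeled libraries alone gave 1174 (5.27%), 613 higher (2.75%) and 561 lower (2.52%). Several genes with a low unadjusted p show this in their controls, and they were named after their values were seen. IL12RB2, a subunit of the interleukin 12 receptor, stood at 3.21 to 4.24 log2 FPKM in labeled inside libraries and 2.99 to 3.98 in labeled outside ones. Its controls stood at 1.85 to 2.27 inside and 2.29 to 3.00 outside. The difference was 0.86 ± 0.18 (limma adjusted p = 0.354), and controls alone were 0.68 lower inside (adjusted p = 0.00247), while labeled libraries differed by 0.18 (adjusted p = 0.44).

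SNORD91B, a small nucleolar RNA within TSR1, had 1.35 ± 0.29 (adjusted p = 0.372), with controls at -1.70 (inside minus outside) and labeled libraries at -0.35. RN7SKP245, a 7SK copy within ENPP1, had 2.18 ± 0.48, with controls at -1.39 and labeled libraries at 0.80. MYLIP (chr6:16129125-16148248, plus strand), a ubiquitin ligase, had the reverse arrangement. It stood at 3.43 to 4.11 in labeled inside libraries against 2.72 to 2.97 in their controls, and at 2.94 to 3.48 in labeled outside libraries against 2.72 to 3.11 in theirs. Its difference was 0.73 ± 0.15 (adjusted p = 0.354), its controls differed by -0.08 and its labeled libraries by 0.65 (adjusted p = 0.00188). Of the genes on the negative side, PTPRA, a receptor phosphatase, had -0.32 ± 0.08 and THG1L, a transfer RNA modifying enzyme, -0.56 ± 0.14, both at an adjusted p of 0.571.

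TXNIP, HEXIM1 and SNHG12, named from the earlier analysis of these libraries, were called on both sides with small side differences. TXNIP, an arrestin-domain regulator of glucose uptake, fell by 0.96 inside and by 0.71 outside, with a difference of -0.24 ± 0.15 and an interval of -0.55 to 0.07. HEXIM1, the inhibitor of the elongation factor P-TEFb, rose by 0.80 inside and 0.69 outside, with 0.11 ± 0.15 and an interval of -0.21 to 0.43. SNHG12, a small nucleolar RNA host gene, rose by 1.10 inside and 1.25 outside, with -0.15 ± 0.16 and an interval of -0.48 to 0.18. HEXIM1 and SNHG12 overlap genes on the opposite strand. U3 copies, 4 tested, had a median difference of 0.31, from 0.10 for SNORD3C to 0.98 for SNORD3B-2, and 0.20 ± 0.67 for SNORD3A. Their intervals were wide, with 0 of 4 within 1 unit of 0, and SNORD3A was called on neither side (adjusted p = 0.0589 inside and 0.12 outside).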

How the data were processed

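RNA of 26 APEX-seq libraries was given as 1 table of log2 FPKM values, which the authors deposited. Per the submitters' processing notes, HISAT2 2.1.0, edgeR and the build hg38 were used, with no order given. The values carry a prior of about 1 read (mean 1.003), and undoing it gave whole reads within 0.05 for 25745 of 25745 genes; limma voom was run on these reads as an alternative. That prior is the sole pseudocount, so on this scale low genes show too small a difference. Identifiers were matched to GENCODE 29 for 24075 genes with and 1579 without their version, 91 not. The table has 0 columns of no sample.

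A gene entered the test if 3 or more libraries had a log2 FPKM over 0. The fit, by limma 3.58.1 (R 4.3.3), had 8 group means, a trend in the spread, 18 residual degrees of freedom, two-sided, Benjamini-Hochberg adjustment over all 22284 genes. Errors after ± are standard errors unless SD is named. Summaries used Python 3.11.15. The method was tested on simulated data. Members, lists (31, with 793 genes tested) and named genes were chosen with earlier results of these data known. The rule named up to 15 called genes in each direction with a mean log2 of at least 1 and 10 reads, which 0 met, and fixed genes; others are said to be chosen after their values were seen or come from lists. Hydropathy used translated GENCODE 29 coding sequences, since RefSeq proteins were not used here. Alternatives changed the filter, the pseudocount, the scaling, the block, weights, the test, the depth, the constructs and the libraries. The 30 pairs of libraries within groups differed by more than sampling noise (chi-square per gene of 5.5 to 88.3). Each library was counted as 1 replicate, though this does not show that they came from separate cultures. The labels do not say whether labeled and control libraries with the same number pair, and the main fit did not pair them. Some items are not reported here.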

Additional observations from a re-analysis of the deposited data

Results flagged for a closer look

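RNU6-1176P, at 3.03, was the gene whose labeling difference inside and outside differed by a test of that difference. The outside constructs differed from each other, by the same kind of test, in 11 genes, most with few reads. CD28 minus PDGFR was -6.63 for RN7SL502P, -6.54 for a Y_RNA copy, -6.48 for RGS17P1, -6.38 for LINC01730, -6.09 for RN7SL306P, -6.07 for ENSG00000219928, -6.05 for ENSG00000257346, -5.75 for ALG9-IT1, -5.22 for FDPSP2, -3.33 for ENSG00000265625 and 3.35 for ENSG00000253426. For RGS17P1, a pseudogene with a mean of 16.8 reads, labeling gave -1.42 with CD28 and 5.06 with PDGFR, and 1.02 with Lyn11 and 1.56 with Lck. Averaging the outside constructs hides such pairs: its inside minus outside difference was -0.53. Single libraries stood far from the others of their group in 3 of 64 groups tested, and chance gives about 1 in 20: 4.4 log2 FPKM for SNHG12 in labeled Lyn11, 3.86 for RNVU1-29 in control Lyn11 and -5.7 for CD28 in control Lyn11, which is its 1 read.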

How the results depend on the processing

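Side of the membrane rests on 2 constructs each, and the outside libraries were shallower. Intervals were wide in genes with few reads, and the part of depth in this cannot be told apart from that of side. The number of genes called, 1, was also 1 without a filter, with the stricter filter, with median centring and after thinning. It was 4 with 0.5 FPKM added, 4 with quantile normalization (RNU6-1176P, FOS, LRRN4CL and ENSG00000257910), 0 with construct weights, 0 with limma voom, and 8 without CD28 labeled replicate 2 and PDGFR control replicate 2 (5 higher, 3 lower). For Lyn11 or Lck against CD28 alone it was 0, and against PDGFR alone 2 each (RGS17P1 and RN7SL306P, FDPSP2 and RN7SL306P). Leaving out 1 library gave 0 to 6. List genes called numbered 0, and 4 with 0.5 FPKM added, 1 with quantile normalization, 1 without the 2 libraries, and 0 without any 1 library. Same-numbered labeled and control libraries had correlations of their deviations from -0.288 to 0.166. These give no sign of pairing, and with so few libraries they cannot exclude it. With the replicate block the count was 0. The cause of these moves was not tested. Signs that turned, in genes not called: CD28 had 0.012 with 0.5 FPKM added, 0.41 with quantile normalization and 0.030 for Lck against CD28, and -0.21 to 0.015 with 1 library left out. JUN had -0.056 for Lck against CD28. For Lyn11 and Lck against CD28, SNHG12 had 0.093 and 0.17 and RNU4-2 0.88 and 0.64. RNVU1-29 had -0.036 with median centring, -0.016 after thinning, -0.091 without the 2 libraries, -0.69 and -1.0 for Lyn11 and Lck against PDGFR, and -0.14 to 0.18 with 1 library left out. SNORD3A had -0.036 for Lyn11 against PDGFR and -0.14 to 0.56 with 1 library left out. Without the 2 libraries, summed U6 had 0.32 and U7 0.23. The unadjusted permutation p for the absence of any labeling effect was then no longer under 0.05. With 1 library left out, U6 had 0.32 to 0.44, U7 0.25 to 0.39, U5 -0.084 to 0.49, U11 -0.16 to 0.94 and U6atac -1.26 to 0.17.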

Other observations

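Stress and regulatory gene lists had medians near or below 0, with 0 genes called in each. Median inside minus outside differences were -0.23 for heat shock genes (19 tested), -0.23 for NRF2 targets of the oxidant response (21), -0.20 for integrated stress response genes (20), -0.10 for hypoxia and glycolysis genes (25) and -0.06 for p53 targets (19). Their labeled-minus-control medians were between -0.09 and -0.05 inside and between 0.02 and 0.17 outside. Actin cytoskeleton genes (40 tested) had -0.19, snoRNA host genes (23) -0.13, genes around P-TEFb (10) -0.09, SR protein and CLK kinase genes (26) -0.08, cholesterol synthesis genes (21) -0.05, nuclear long noncoding RNAs (13) -0.02 and MondoA targets (11) 0.05. Most of these shrank under quantile normalization, to -0.04 for heat shock, -0.13 for NRF2, -0.09 for integrated stress, -0.08 for actin and -0.02 for P-TEFb genes. The sign turned for snoRNA hosts (0.06), SR and CLK genes (0.08), cholesterol synthesis (0.02) and hypoxia genes (0.01), and for MondoA targets with median centring (-0.02). The marker lists had -0.03 for HEK293T (12 tested), 0.28 for blood (3), 0.06 for fibroblast (3) and -0.25 for epithelial genes (5). CCN2, a matricellular relative of CCN1, was the ninth early gene higher at an unadjusted p under 0.05, at 0.64.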
